A study of Mus musculus with 72 samples.

Results

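The livers described here came from C57BL/6J (B6J) mice, 7 fed a high-fat diet (HFD) for 21 days and 8 controls, each measured on its own array. They were chosen by the strain and diet in the sample titles and make up 15 of the 72 arrays of a series that also holds C57BL/6NTac (B6N, 16 arrays), 129P2/OlaHsd (129, 15 arrays) and C3HeB/FeJ (C3H, 26 arrays) livers. All mice were wild-type males that were housed singly and sampled in the random-fed state. HFD mice were 17 weeks old and controls 15 to 17 weeks, so age went partly with diet. Per the labels' protocol the comparison diet was a low-fat diet for at most 21 days, but the treatment label of the controls reads none, and the sources used here do not say which control ate it for how long. The comparison asks which liver transcripts differed between B6J mice on HFD and these controls. Values are normalised log2 probe set signals of 19938 genes, so a difference of 1 is a change of 2-fold. As all B6J mice carry the truncated form of Nnt, a mitochondrial transhydrogenase, its level served as a check of the strain. It was 7.88 ± 0.154 in controls (SD, n = 8) and 8.11 ± 0.159 on HFD (n = 7) in B6J, against 9.02 ± 0.368 (n = 8) and 9.41 ± 0.259 (n = 8) in B6N.

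The liver takes up dietary fat as lipoprotein remnants and free fatty acids, and either oxidises it, stores it as triglyceride in droplets or exports it in lipoproteins. Fatty acids bind the nuclear receptor PPARα, which switches on genes of mitochondrial, peroxisomal and omega oxidation, of ketone body formation and of fatty acid transport. Hepatocytes also make bile acids, conjugate them with taurine, and clear drugs and reactive lipid products through cytochromes P450, carboxylesterases and glutathione S-transferases.

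In B6J livers on HFD, the phospholipid carrier Mfsd2a, the apolipoprotein Apoa4 and the fatty acid binding protein Fabp2 rose. So did 5 genes listed under mitochondrial fatty acid oxidation and ketogenesis, the hormone Fgf21 among them, and 2 of polyunsaturated fatty acid synthesis. By contrast 8 glutathione S-transferases, the P450 oxidases Cyp3a11, Cyp3a44 and Cyp2c55, the carboxylesterase Ces2a and the taurine-forming enzyme Csad fell. Limma called 95 genes at an adjusted p under 0.05, 0.476% of the genes tested. Of these, 42 were higher on HFD (0.211% of genes) and 53 lower (0.266%). At an unadjusted p under 0.05 there were 1450 genes (7.27%), 710 higher (3.56%) and 740 lower (3.71%). The log2 changes of all genes ran from -1.37 to 2.98 with a median of 0. Of the called genes, 56 changed by at least 1.5-fold, 28 in each direction, and 14 by at least 2-fold. Over all genes, every HFD array lay above every control for 29 genes (0.145%) and below every control for 40 (0.201%). Among the called genes this held for 21 and 32. Without HFD array 6 the called genes numbered 131, of which 74 were higher, and without control array 5 they numbered 67, of which 28 were higher and 39 lower.

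The arrays of each group were set against each other. Any 2 arrays of a B6J group correlated between 0.9731 and 0.9946 over the 19938 genes. Transcripts of the exocrine pancreas, an organ that lies against the liver, varied widely within both groups. The mean log2 signal of 25 pancreatic acinar genes spanned 4.77 to 10.46 among controls, a 51.8-fold range, and 4.56 to 9.63 among HFD arrays, a 33.7-fold range. It was highest in control array 6 and HFD arrays 1 and 2. No acinar gene was called by limma, and 0 passed an unadjusted p of 0.05. Sycn, a secretory granule protein, had a log2 change of 0.54 ± 0.886 (SE, adjusted p = 0.96), and Cpb1, a carboxypeptidase, 0.52 ± 1.13 (0.98). Without the 3 arrays of highest acinar signal, limma called 50 genes, 21 higher and 29 lower. Of the 95 genes, 48 were among them, and none changed direction. A fit on fewer arrays is also less precise, so a call lost there is not by itself a changed effect. With the acinar signal as a covariate on all 15 arrays, 91 genes were called, 90 of them among the 95. The part of the acinar signal in the results was not tested further.

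**Figure D1:**
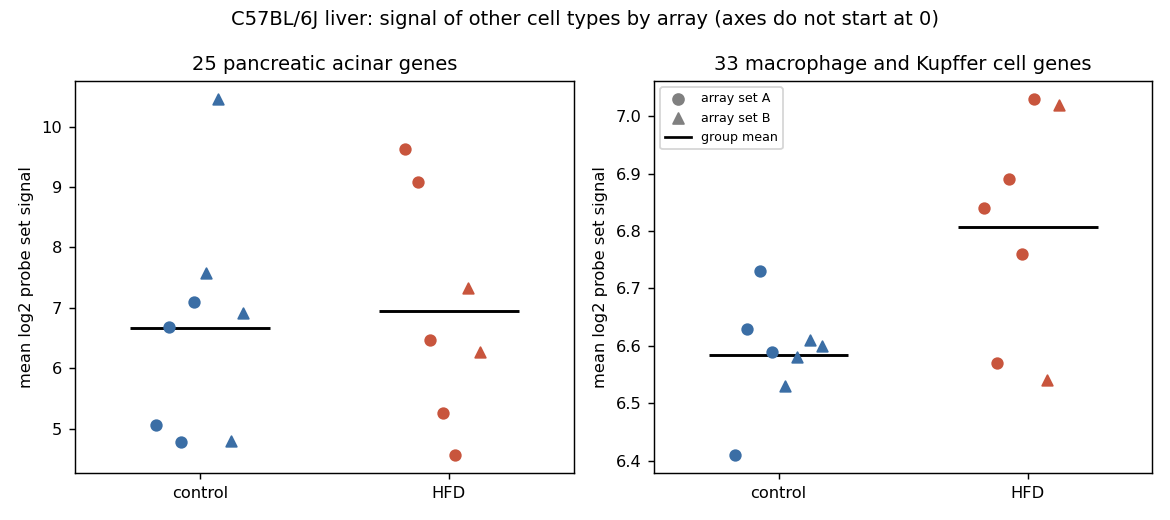
Mean log2 probe set signal of 25 pancreatic acinar genes (left) and 33 macrophage and Kupffer cell genes (right) on each C57BL/6J array, controls in blue and HFD in red, with horizontal lines at the group means and symbols for the array set, circles for A and triangles for B. Acinar signal spans 4.77 to 10.46 in controls and 4.56 to 9.63 on HFD, while macrophage signal spans 6.41 to 6.73 and 6.54 to 7.03.

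A second pattern separated arrays within groups. The first principal component of the 31 B6J and B6N arrays, after group means were removed, held 29.4% of the remaining variance and divided the B6J arrays into set A (controls 1 to 4 and HFD 1 to 5) and set B (controls 5 to 8 and HFD 6 and 7). The labels name no scan or extraction batch, and what the sets stand for was not tested. The 95 genes, called over the pooled arrays, had the same direction in both sets, of which set B holds 2 HFD arrays. As the sets are parts of the arrays that gave the calls, this agreement is no support for them. Sizes could differ, as for Slc25a47 (1.33 in set A and 0.37 in set B), Csad (-1.58 and -0.86) and Rgs16 (2.38 and 1.54), named after their values were seen. With the set as a block, limma called 148 genes, 59 higher and 89 lower, and these included all 95. As the sets were drawn from the residuals of these arrays, the block lowers the residual spread by construction, and the larger count is no support for the calls.

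Promoter sequences are shown for genes whose values follow, so that the start regions of genes that rose and fell can be set side by side. Each is the RefSeq window of GRCm38.p6 from 250 bases before to 50 bases after the start of the gene, 300 bases in all, read 5′ to 3′ on the gene's strand. Capitals mark the nuclear receptor half-site AGGTCA, printed as its reverse complement where it lies on the other strand, and the E-box CACGTG, which reads the same on both strands. The windows lie at chr4:122961139-122961438, minus strand, for Mfsd2a; chr9:46240594-46240893, plus strand, for Apoa4; and chr19:3323051-3323350, plus strand, for Cpt1a. Those of Fgf21, Cyp3a11 and Cyp3a44 lie on the minus strand at chr7:45615441-45615740, chr5:145879805-145880104 and chr5:145805825-145806124.
Mfsd2a: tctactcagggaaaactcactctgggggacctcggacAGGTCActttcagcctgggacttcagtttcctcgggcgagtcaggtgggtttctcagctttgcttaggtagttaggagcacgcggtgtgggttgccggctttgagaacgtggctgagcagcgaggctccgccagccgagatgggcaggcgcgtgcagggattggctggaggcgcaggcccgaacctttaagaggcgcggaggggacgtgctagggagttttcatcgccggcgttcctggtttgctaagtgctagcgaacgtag
Apoa4: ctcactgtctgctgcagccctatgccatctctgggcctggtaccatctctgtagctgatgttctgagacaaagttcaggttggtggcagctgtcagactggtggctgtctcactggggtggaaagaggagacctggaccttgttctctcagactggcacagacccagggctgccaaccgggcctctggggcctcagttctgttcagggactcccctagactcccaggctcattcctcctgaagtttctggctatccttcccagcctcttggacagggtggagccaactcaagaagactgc
Cpt1a: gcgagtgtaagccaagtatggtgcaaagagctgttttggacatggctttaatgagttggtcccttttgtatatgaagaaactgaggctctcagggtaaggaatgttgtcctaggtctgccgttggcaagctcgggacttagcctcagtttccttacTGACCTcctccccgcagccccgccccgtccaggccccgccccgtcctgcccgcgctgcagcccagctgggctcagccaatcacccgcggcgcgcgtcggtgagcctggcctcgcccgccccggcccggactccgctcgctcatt
Fgf21: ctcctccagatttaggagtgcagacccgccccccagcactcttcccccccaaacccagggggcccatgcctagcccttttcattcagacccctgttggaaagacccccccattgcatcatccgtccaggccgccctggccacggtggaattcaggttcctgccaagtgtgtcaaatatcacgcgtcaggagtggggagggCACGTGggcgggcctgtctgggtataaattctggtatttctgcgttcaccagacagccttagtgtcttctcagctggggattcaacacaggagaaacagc
Cyp3a11: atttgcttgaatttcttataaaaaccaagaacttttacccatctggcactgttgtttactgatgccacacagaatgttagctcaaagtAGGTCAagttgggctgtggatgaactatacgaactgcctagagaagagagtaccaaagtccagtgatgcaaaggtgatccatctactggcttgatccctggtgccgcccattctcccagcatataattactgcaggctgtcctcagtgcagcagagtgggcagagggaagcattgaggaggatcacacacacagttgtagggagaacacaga
Cyp3a44: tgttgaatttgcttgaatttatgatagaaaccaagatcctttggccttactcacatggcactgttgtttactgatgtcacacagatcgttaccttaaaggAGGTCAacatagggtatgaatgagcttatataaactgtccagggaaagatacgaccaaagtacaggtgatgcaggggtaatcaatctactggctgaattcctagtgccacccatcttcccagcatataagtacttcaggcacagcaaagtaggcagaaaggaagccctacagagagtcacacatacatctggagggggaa
The half-site begins 213 bases before the start in Mfsd2a, 94 before it on the other strand in Cpt1a, 162 before it in Cyp3a11 and 150 before it in Cyp3a44, and the E-box of Fgf21 begins 50 bases before the start. The Apoa4 window holds neither motif. Searched on both strands, AGGTCA was present in 6 of the 34 higher genes with a window (17.6%) and in 9 of the 47 lower ones (19.1%), against 2548 of the 15614 tested genes with a window (16.3%). CACGTG was present in 8 of the 34 higher genes (23.5%: Mgll, Fgf21, Bhlhe41, Tef, Ldha, Mtnr1a, Slc20a1 and Ubxn10) and in 3 of the 47 lower ones (6.38%), against 1483 of 15614 (9.5%). Over all 32851 windows of the table the shares were 16.3% and 7.15%. Both motifs were chosen with the called genes known, and a match is a description of the sequence.

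Among genes of lipid carriage, 3 of 29 measured members of the list of lipoproteins, apolipoproteins and fatty acid uptake were called, all higher, with a list median of 0.04. Mfsd2a carries lysophosphatidylcholine with long-chain fatty acids into cells. Its log2 level was 5.37, 6.12 and 7.22 (lowest, median and highest) in controls and 8.66, 9.26 and 9.72 on HFD. Every HFD array lay above every control, and it rose 7.89-fold (95% interval 5.6 to 11.1, adjusted p = 1e-06). Apoa4, an apolipoprotein of chylomicrons and of high-density lipoprotein, was at 9.03, 9.16 and 9.5 in controls and 10.55, 11 and 11.28 on HFD. There was no overlap, with a rise of 3.2-fold (2.73 to 3.76, adjusted p = 6.8e-08). Fabp2, the intestinal-type fatty acid binding protein, was at 6.88, 7.27 and 8.36 in controls and 8.08, 8.98 and 9.92 on HFD. The groups overlapped at their edges, and the rise was 3.04-fold (2.14 to 4.32, adjusted p = 0.0021). All 3 remained called without the 3 arrays of highest acinar signal. Cd36, the fatty acid translocase, had a log2 change of 0.34 ± 0.215 (adjusted p = 0.81).

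**Figure D2:**
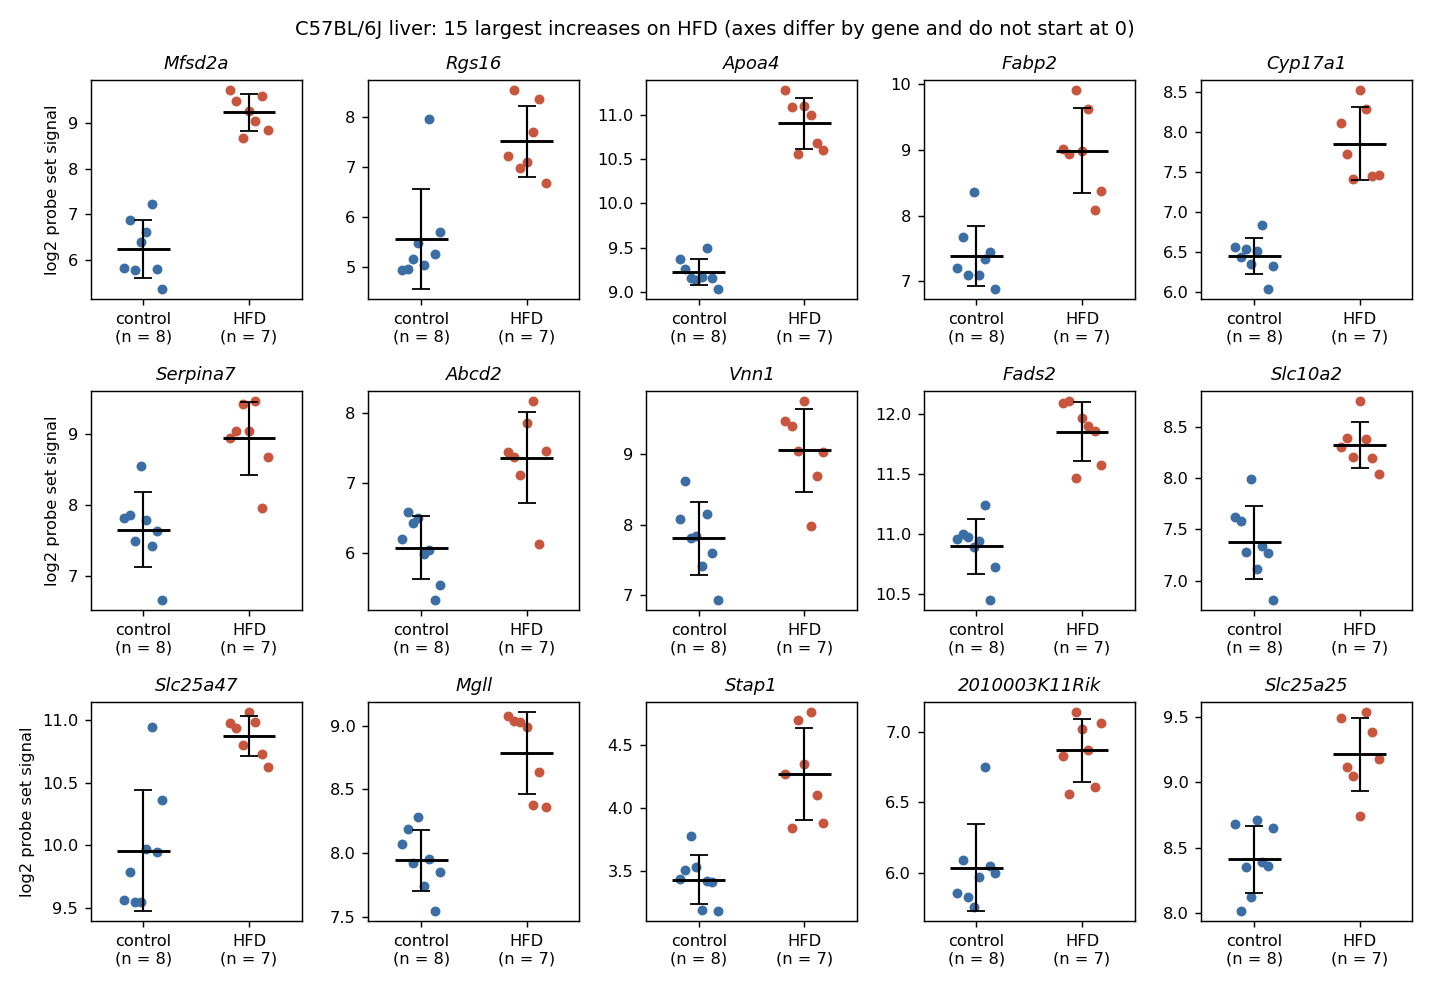
Log2 probe set signal of the 15 called genes with the largest increases in C57BL/6J livers, by array, with bars for mean ± SD of 8 control and 7 HFD arrays. Each gene has its own axis, which does not start at 0. Mfsd2a lies at 5.37 to 7.22 in controls and 8.66 to 9.72 on HFD without overlap, while Rgs16 shows a control array at 7.96 within the HFD range.

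Of 25 measured genes of mitochondrial fatty acid oxidation and ketogenesis, 5 rose and 0 fell, 13 passed an unadjusted p of 0.05 (12 of them higher), and the list median was 0.19 against 0 over all genes. Cpt1a, the outer-membrane carnitine transferase that admits long-chain fatty acids to mitochondria, was at 9.31, 9.57 and 9.87 in controls and 9.93, 10.2 and 10.7 on HFD. The groups did not overlap, and it rose 1.68-fold (1.41 to 2.01, adjusted p = 0.0039), a call lost with all 72 arrays in the fit (0.17). Fgf21, a secreted hormone of the fasting and ketogenic state, was at 4.49, 4.69 and 5.4 in controls and 4.88, 5.54 and 5.97 on HFD. Control array 6 was within the HFD range, and the rise was 1.68-fold (1.37 to 2.06, adjusted p = 0.012). Most controls lay near the array medians (4.51 to 4.62), a level that may be background, so this fold is of uncertain size. Bdh1, which interconverts the ketone bodies, rose by 0.41 ± 0.0759 log2 units (adjusted p = 0.012) without overlap of the groups. Decr1 and Eci2, auxiliary enzymes for unsaturated fatty acids, rose by 0.36 ± 0.0755 (adjusted p = 0.031) and 0.35 ± 0.0719 (0.024). The Decr1 call was lost without any 1 of 9 arrays (controls 1, 4, 5, 6 and 8 and HFD 1 to 4, adjusted p 0.054 to 0.083) and the Eci2 call without any 1 of 7 (controls 3, 4, 5 and 8 and HFD 1, 2 and 4, 0.051 to 0.067). Without the 3 arrays of highest acinar signal 1 gene of the list, the hormone Fgf21, was called, and no enzyme of the list was. Pdk4, the kinase that restrains pyruvate oxidation, had a log2 change of -0.63 ± 0.248 (adjusted p = 0.51), opposite in sign to most of its list.

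In the list of peroxisomal and omega oxidation, 2 of 25 measured genes rose, 0 fell, 14 passed an unadjusted p of 0.05 and the median was 0.18. Abcd2, a peroxisomal importer of very long-chain acyl-CoA, was at 5.32, 6.11 and 6.58 in controls and 6.12, 7.44 and 8.17 on HFD. A low HFD array lay among the controls, and the rise was 2.44-fold (1.72 to 3.47, adjusted p = 0.013). Eci2 was the other called member. Cyp4a14 and Cyp4a10, microsomal omega-hydroxylases, had log2 changes of 0.99 ± 0.472 (adjusted p = 0.68) and 0.51 ± 0.238 (0.67), their groups being widely spread. Decr2, the peroxisomal dienoyl-CoA reductase, was just outside the threshold at 0.36 ± 0.0806 (adjusted p = 0.058), with every HFD array above every control. Of 23 PPARα target genes outside oxidation, 2 rose and 0 fell, 10 passed an unadjusted p of 0.05, and the median was 0.2. Vnn1, a pantetheinase, was at 6.93, 7.83 and 8.62 in controls and 7.98, 9.05 and 9.76 on HFD. The ranges overlapped, and it rose 2.38-fold (1.68 to 3.37, adjusted p = 0.016). Without the 3 arrays of highest acinar signal the adjusted p was 0.12 for Abcd2 and 0.14 for Vnn1.

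Mgll, the monoglyceride lipase that finishes triglyceride breakdown, was the other called PPARα target and the 1 called member of 20 lipid droplet and lipolysis genes, whose median was 0.08. It was at 7.54, 7.93 and 8.28 in controls and 8.36, 8.99 and 9.08 on HFD. It rose 1.8-fold without overlap (1.49 to 2.18, adjusted p = 0.0025). The droplet coat gene Plin2, the droplet fusion gene Cidec and the lipolysis inhibitor G0s2 had log2 changes of 0.4 ± 0.117, 0.63 ± 0.169 and 0.87 ± 0.207, with adjusted p of 0.23, 0.15 and 0.081. Ppara itself had a change of 0.56 ± 0.127 (adjusted p = 0.061).

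Of 30 genes of fatty acid synthesis and triglyceride assembly, 2 rose and 0 fell, 10 passed an unadjusted p of 0.05, and the median was 0.15. Both called genes act on polyunsaturated fatty acids. Fads2, the delta-6 desaturase, was at 10.45, 10.95 and 11.24 in controls and 11.47, 11.9 and 12.11 on HFD. The groups did not overlap, and it rose 1.94-fold (1.65 to 2.29, adjusted p = 0.00011). Elovl2, which lengthens polyunsaturated fatty acids, was at 11.01, 11.13 and 11.25 in controls and 11.44, 11.93 and 11.99 on HFD. It also rose without overlap, 1.55-fold (1.36 to 1.78, adjusted p = 0.0017). The enzymes of saturated and monounsaturated fatty acid synthesis were not called. Fasn, the fatty acid synthase, had a log2 change of 0.24 ± 0.315 (adjusted p = 0.94), and Scd1, the delta-9 desaturase, of -0.13 ± 0.0817 (0.8). Of 20 cholesterol synthesis and SREBP2 target genes none was called and 2 passed an unadjusted p of 0.05, both lower. That list's median was -0.17, with Msmo1 at -0.33 ± 0.13 (adjusted p = 0.51) and Lss at -0.28 ± 0.169 (0.8).

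Among 27 genes of bile acid synthesis and transport, 2 rose, 0 fell and the median was -0.1. The called genes encode the paired half-transporters that secrete sterols into bile. Abcg5 was at 8.45, 8.73 and 9.02 in controls and 9.12, 9.22 and 9.55 on HFD. Without overlap, it rose 1.52-fold (1.33 to 1.74, adjusted p = 0.0025), a call lost with all 72 arrays in the fit (0.1). Abcg8 rose by 0.59 ± 0.126 (adjusted p = 0.035), a call lost without any 1 of 10 arrays (controls 1, 2, 3, 5, 7 and 8 and HFD 1, 2, 4 and 5, 0.065 to 0.094) and without the 3 arrays of highest acinar signal (0.21). Cyp7a1, the rate-limiting enzyme of bile acid synthesis, had a log2 change of -0.91 ± 0.311 (adjusted p = 0.38). Slc10a2, the apical sodium-dependent bile acid carrier, stood outside the list and rose 1.93-fold (1.57 to 2.37, adjusted p = 0.0017), from 6.81, 7.31 and 7.99 in controls to 8.04, 8.3 and 8.75 on HFD with no overlap.

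Several other genes rose by similar amounts. Rgs16, a regulator of G protein signalling that follows glucose in liver, was at 4.94, 5.2 and 7.96 in controls and 6.67, 7.22 and 8.55 on HFD. The control at 7.96 was array 6, and the other 7 lay at or below 5.7. Rgs16 rose 3.87-fold (2.23 to 6.74, adjusted p = 0.018), a call lost without control array 5 or without HFD array 2 (0.052 in each case). The call was also lost with limma's trended robust variance prior (0.1) and with all 72 arrays in the fit (0.063). Cyp17a1, a steroid 17-hydroxylase, was at 6.04, 6.48 and 6.84 in controls and 7.42, 7.73 and 8.53 on HFD. It rose 2.65-fold without overlap (2.1 to 3.33, adjusted p = 6.8e-05). Serpina7, thyroxine-binding globulin, rose 2.44-fold (1.75 to 3.41, adjusted p = 0.0085) with overlapping groups, and its adjusted p was 0.1 without the 3 arrays of highest acinar signal. Of the mitochondrial carriers, Slc25a47 rose 1.88-fold (1.48 to 2.4, adjusted p = 0.011) with overlap, and Slc25a25, an ATP-magnesium and phosphate carrier, 1.75-fold (1.45 to 2.1, adjusted p = 0.0027) without. The Slc25a25 call was lost with all 72 arrays in the fit (adjusted p = 0.54). Stap1, a signalling adaptor, rose by 0.84 ± 0.133 (adjusted p = 0.003) and 2010003K11Rik by 0.83 ± 0.129 (0.0025). The array medians were 4.51 to 4.62, and levels below them, such as the 3.43 and 4.27 median of Stap1 in controls and on HFD, cannot be told from background, so that its fold has no certain size.

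Glutathione conjugation and antioxidant defence had the most called genes of any list. Of 36 measured members 8 fell and 0 rose, all 18 that passed an unadjusted p of 0.05 were lower, and the median was -0.18. Glutathione S-transferases couple glutathione to electrophiles. Gstm3, of the mu class, was at 9.95, 10.18 and 10.36 in controls and 8.94, 9.3 and 9.45 on HFD. With no overlap, it fell 1.92-fold (1.68 to 2.19, adjusted p = 1.1e-05). Gsta4, which detoxifies the lipid peroxidation product hydroxynonenal, was at 10.03, 10.17 and 10.4 in controls and 9.01, 9.18 and 9.76 on HFD. It fell 1.87-fold without overlap (1.62 to 2.17, adjusted p = 6.7e-05). Gstp1, of the pi class, was at 12.85, 13 and 13.25 in controls and 12.05, 12.31 and 12.87 on HFD. HFD array 6 at 12.87 reached the control range, and the fall was 1.6-fold (1.38 to 1.87, adjusted p = 0.0024).

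Gstm1, Gstm4 and Gstm6 fell by 0.61 ± 0.0988, 0.6 ± 0.126 and 0.56 ± 0.104 log2 units (adjusted p = 0.0036, 0.03 and 0.012), and Gstm5 and Gsto1 by 0.47 ± 0.0952 and 0.47 ± 0.0788 (0.025 and 0.0048). Probe sets of the mu class can take up each other's transcripts, so these falls may not be separate. The Gstm4 call was lost without any 1 of 9 arrays (controls 2, 3, 5, 6 and 7 and HFD 1, 2, 5 and 7, adjusted p 0.056 to 0.07) and the Gstm5 call without any 1 of 8 (controls 2, 3, 4, 5 and 7 and HFD 1, 2 and 7, 0.053 to 0.069). Without the 3 arrays of highest acinar signal 5 members of the list were called lower. With all 72 arrays in the fit the calls of Gstm1 (adjusted p = 0.13) and Gstm5 (0.27) were lost. Osgin1, an oxidative stress response gene, fell 1.82-fold (1.41 to 2.35, adjusted p = 0.024) with overlapping groups, a call lost without any 1 of 8 arrays (controls 2, 3, 5, 6 and 7 and HFD 1, 3 and 5, 0.051 to 0.069). The master regulator Nfe2l2 had a log2 change of 0.12, its target Nqo1 one of -0.36 and the epoxide hydrolase Ephx1 one of -0.59 ± 0.147 (adjusted p = 0.11), none of them called.

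**Figure D3:**
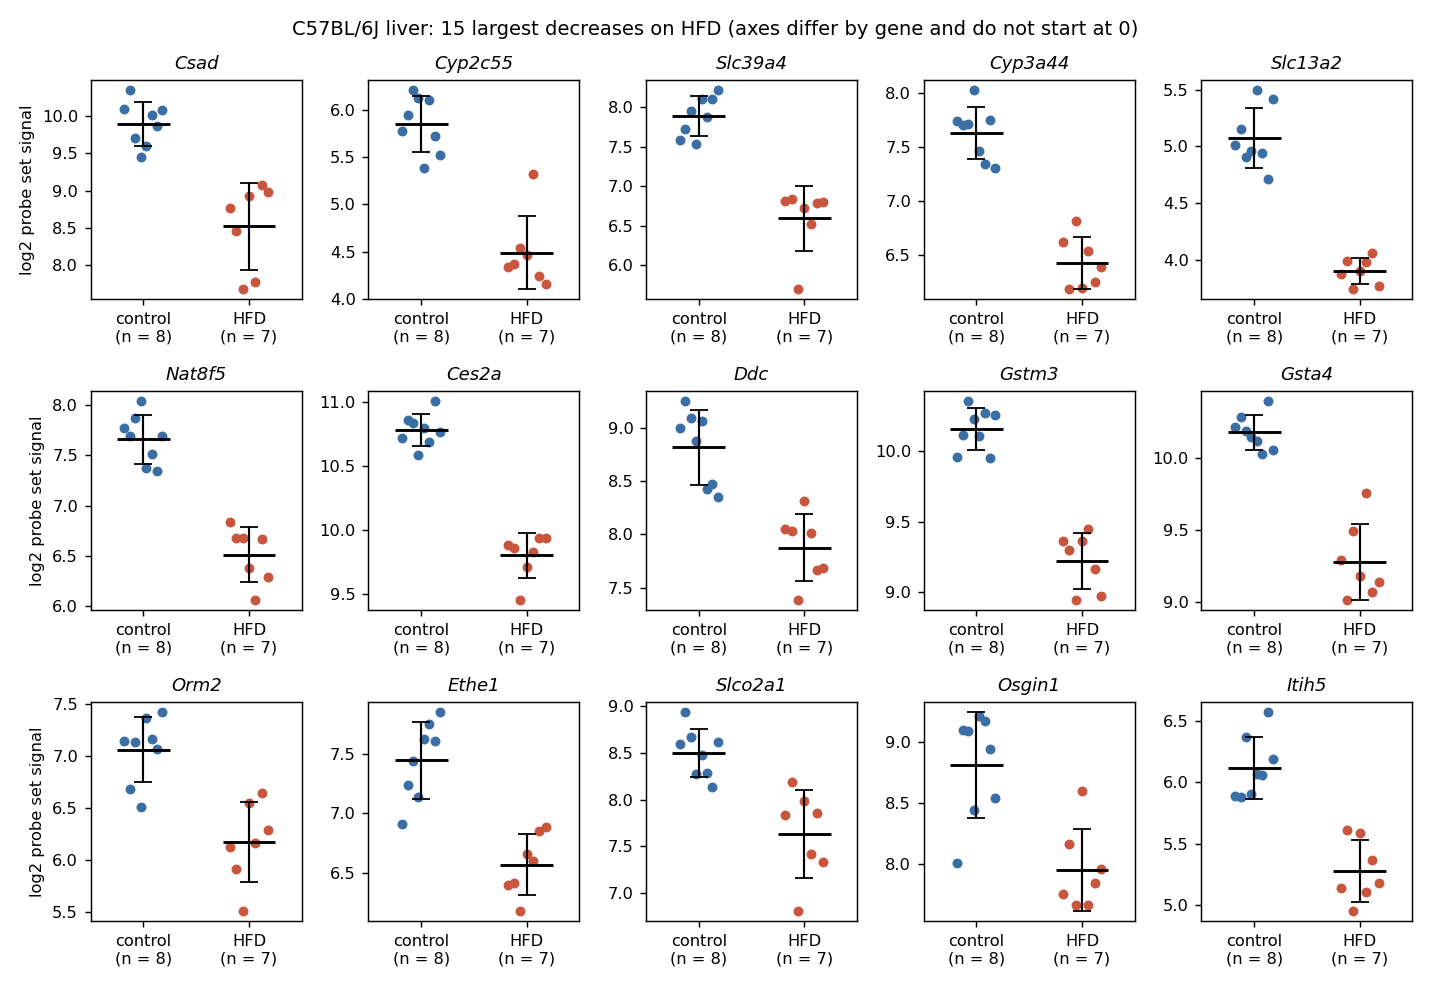
Log2 probe set signal of the 15 called genes with the largest decreases in C57BL/6J livers, by array, with bars for mean ± SD of 8 control and 7 HFD arrays. Each gene has its own axis, which does not start at 0. Ces2a lies at 10.59 to 11.01 in controls and 9.45 to 9.94 on HFD without overlap, while the groups of Orm2, Slco2a1 and Osgin1 overlap.

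Of 34 measured members of the list of cytochrome P450 drug and steroid oxidation, which also holds the receptors Nr1i2 and Nr1i3 (not called), 5 P450 genes fell and 1, Cyp17a1, rose. Of the 19 that passed an unadjusted p of 0.05, 17 were lower, and the median was -0.19. Cyp3a11, the main drug-oxidising enzyme of the mouse Cyp3a family, was at 11.87, 11.97 and 12.29 in controls and 10.95, 11.3 and 11.41 on HFD. The groups did not overlap, and it fell 1.73-fold (1.53 to 1.95, adjusted p = 3e-05). Its close relative Cyp3a44 was at 7.3, 7.7 and 8.03 in controls and 6.18, 6.39 and 6.81 on HFD. It fell 2.3-fold without overlap (1.94 to 2.73, adjusted p = 1.1e-05). Cyp2c55 was at 5.39, 5.86 and 6.22 in controls and 4.15, 4.37 and 5.32 on HFD. HFD array 5 was high but still below every control, and the fall was 2.57-fold (2.06 to 3.22, adjusted p = 7.1e-05), of uncertain size because most HFD values lay near or below the array medians. Cyp2c68 fell 1.61-fold (1.39 to 1.86, adjusted p = 0.0017) and Cyp2f2, a naphthalene oxidase of periportal hepatocytes, 1.39-fold (1.22 to 1.59, adjusted p = 0.016), both without overlap. With all 72 arrays in the fit both calls were lost (0.55 and 0.44). That of Cyp2f2 was also lost with all B6J and B6N arrays (0.13) and after quantile normalisation (0.065). Cyp2c67, outside the list and named after its value was seen, fell by 0.49 ± 0.0978 (adjusted p = 0.022), a call lost without control array 5 or HFD array 1 or 3 (0.054 to 0.062) and without the 3 arrays of highest acinar signal (0.1). Probe sets of the Cyp2c and Cyp3a families can share signal.

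Of 14 carboxylesterases, which split ester drugs and lipids, 2 fell and 0 rose, with a median of -0.19. Ces2a was at 10.59, 10.79 and 11.01 in controls and 9.45, 9.86 and 9.94 on HFD. The groups lay well apart, and it fell 1.98-fold (1.75 to 2.23, adjusted p = 2.2e-06). Ces2b fell by 0.49 ± 0.0925 (adjusted p = 0.014, or 0.061 without the 3 arrays of highest acinar signal), at a level where its HFD values were below the array medians. None of 18 glucuronidation and sulfation genes was called, 2 passed an unadjusted p of 0.05 and their median was -0.09. Ugt2b35 and Ugt2b37 had log2 changes of -0.38 ± 0.102 (adjusted p = 0.16) and -0.31 ± 0.115 (0.44). Ugdh, which makes the glucuronic acid donor, was just outside the threshold at -0.44 ± 0.0997 (adjusted p = 0.058), with every HFD array below every control. Scfd2, a vesicle transport gene, was there too at -0.3 ± 0.0674 (0.058).

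Of 28 genes of cysteine, taurine and one-carbon metabolism, 2 fell, 0 rose, all 9 that passed an unadjusted p of 0.05 were lower, and the median was -0.14. Csad, cysteine sulfinate decarboxylase, catalyses the step of taurine synthesis that supplies bile acid conjugation. It was at 9.45, 9.93 and 10.35 in controls and 7.68, 8.76 and 9.08 on HFD. All HFD arrays were below all controls, and it fell 2.58-fold (1.93 to 3.45, adjusted p = 0.0016). Ethe1, the mitochondrial persulfide dioxygenase of sulfide breakdown, was at 6.91, 7.53 and 7.85 in controls and 6.18, 6.6 and 6.89 on HFD. It fell 1.83-fold with a narrow gap between the groups (1.5 to 2.23, adjusted p = 0.0025), and its adjusted p was 0.054 without the 3 arrays of highest acinar signal. Of 38 genes of amino acid breakdown and the urea cycle, 2 fell, 0 rose, all 10 that passed an unadjusted p of 0.05 were lower, and the median was -0.06. Ddc, aromatic amino acid decarboxylase, fell 1.92-fold (1.54 to 2.39, adjusted p = 0.0036), from 8.35, 8.94 and 9.25 to 7.38, 8.01 and 8.31 with no overlap. Hal, histidine ammonia lyase, fell by 0.5 ± 0.0911 (adjusted p = 0.0098), or 0.068 without the 3 arrays of highest acinar signal.

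Of 31 zinc, iron and solute carriers, 2 fell and 0 rose, with a median of -0.06. Slc39a4, a zinc importer, was at 7.53, 7.91 and 8.22 in controls and 5.7, 6.79 and 6.84 on HFD. HFD array 3 was the lowest, the groups did not overlap, and the fall was 2.44-fold (1.96 to 3.05, adjusted p = 0.00011). The zinc-binding metallothioneins Mt1 and Mt2 had log2 changes of 0.09 ± 0.157 (adjusted p = 0.96) and -0.2 ± 0.214 (0.92). Slc13a2, a sodium-dependent dicarboxylate carrier, was at 4.71, 4.99 and 5.5 in controls and 3.74, 3.9 and 4.06 on HFD. It fell by 1.17 ± 0.105 (adjusted p = 4e-06) without overlap, to levels below the array medians, so the fold is of uncertain size. Slco2a1, a prostaglandin carrier outside the list, fell by 0.87 ± 0.169 (adjusted p = 0.016) with overlap. Its call was lost with all B6J and B6N arrays in the fit (0.091) and with all 72 arrays (0.4). Nat8f5, a member of the N-acetyltransferase 8 family, fell 2.21-fold (1.85 to 2.64, adjusted p = 4e-05), and Itih5, an inter-alpha-trypsin inhibitor heavy chain, 1.79-fold (1.5 to 2.13, adjusted p = 0.0013), both without overlap.

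**Figure D4:**
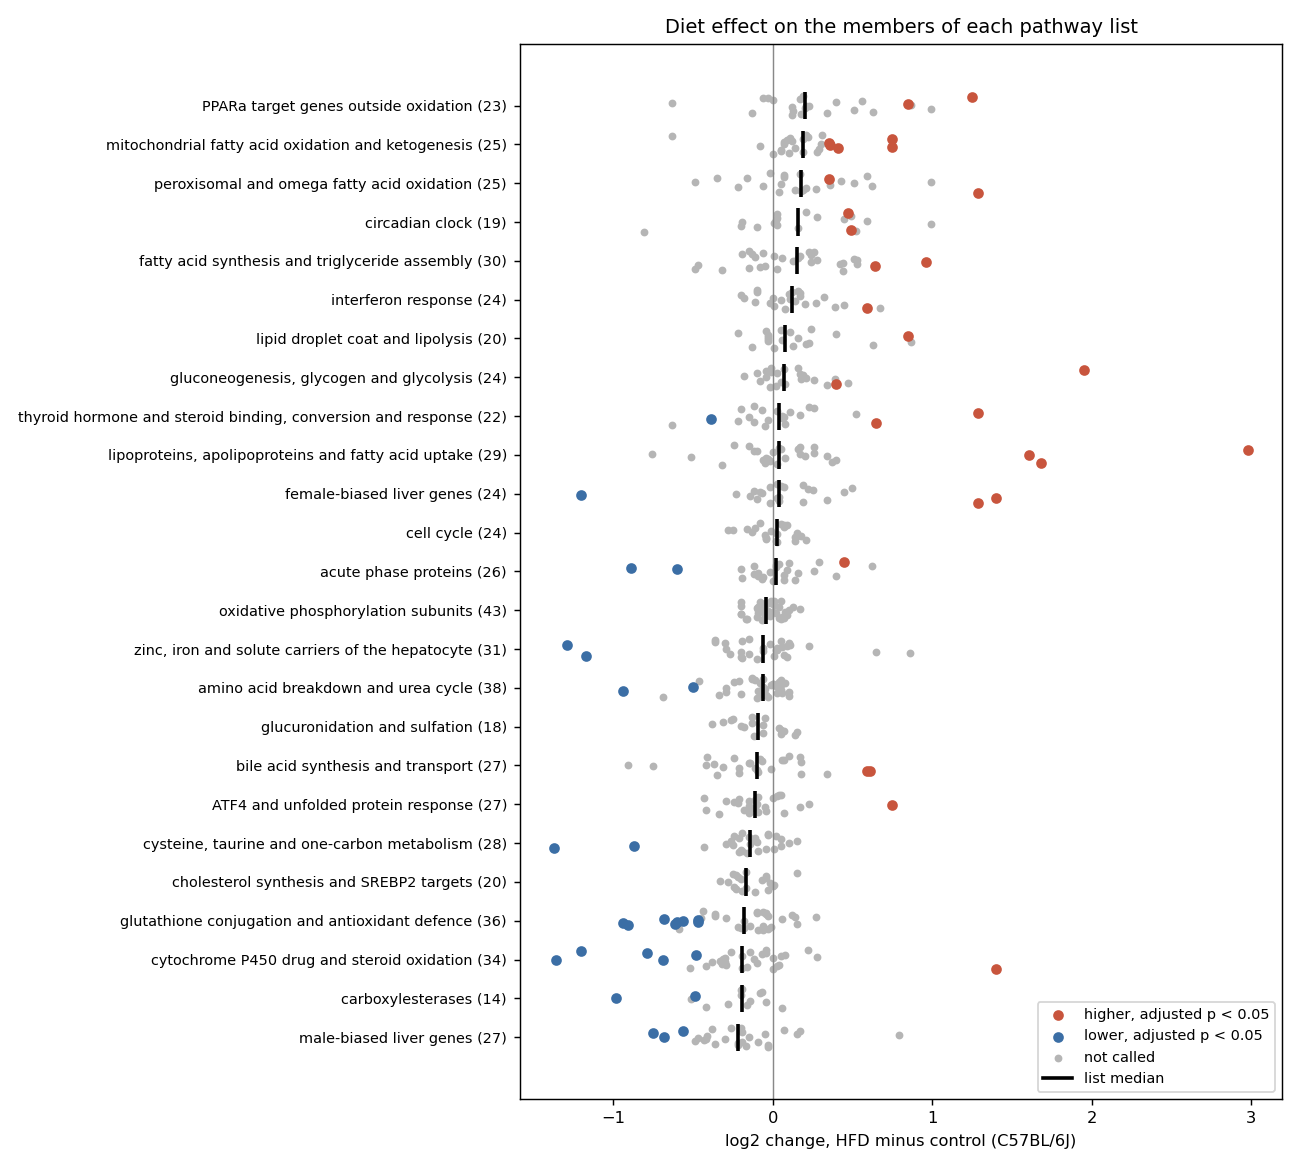
Log2 change on HFD of each measured member of 25 pathway lists in C57BL/6J livers, with called genes in red (higher) and blue (lower), other members in grey and black bars at the list medians. The number of measured members follows each list name. Medians run from -0.22 for male-biased genes to 0.2 for PPARα targets, and all 8 called glutathione genes lie left of 0.

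Of 24 genes of gluconeogenesis, glycogen and glycolysis, Rgs16 and Gys2 rose, 0 fell and the median was 0.07. Gys2, the liver glycogen synthase, rose by 0.4 ± 0.0848 (adjusted p = 0.033), a call lost without any 1 of 10 arrays (controls 1 to 5 and 8 and HFD 1, 2, 4 and 5, 0.053 to 0.099), without the 3 arrays of highest acinar signal (0.23) and with a replicate block (0.14). Of 19 circadian clock genes, 2 rose, 0 fell and the median was 0.16. Bhlhe41, a repressor in the clock loop, rose by 0.49 ± 0.0961 (adjusted p = 0.019), a call lost without HFD array 1 or 2 (0.051 to 0.057). All its control values (3.8 to 4.37) and some HFD values (4.39 to 4.81) were below the array medians, so the size of the change is uncertain. Tef, an output factor of the clock, rose by 0.47 ± 0.103 (adjusted p = 0.042), a call lost without any 1 of 13 arrays (all but HFD 4 and 7, 0.051 to 0.11). Neither clock gene was called without the 3 arrays of highest acinar signal (0.12 and 0.21), where their log2 changes were 0.49 and 0.45. Dbp and Arntl, which peak at opposite times of day, had log2 changes of 0.99 ± 0.236 (adjusted p = 0.081) and -0.81 ± 0.205 (0.11), and the time of sampling is not given in the labels.

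Of 26 acute phase genes, 2 fell and 1 rose, with a median of 0.02. Orm1 and Orm2, the orosomucoids, fell by 0.6 ± 0.0888 (adjusted p = 0.0017) and 0.89 ± 0.158 (0.0086), and as near copies they may share signal. Steap4, a metalloreductase induced by inflammation, rose by 0.45 ± 0.0846 (adjusted p = 0.013). Without the 3 arrays of highest acinar signal the adjusted p of Orm2 was 0.12 and that of Steap4 0.094. With all 72 arrays in the fit both calls were also lost (0.3 and 0.068), and that of Orm2 with all B6J and B6N arrays (0.21). Fgf21 was the 1 called gene of 27 in the ATF4 and unfolded protein response list, whose median was -0.11. None of 43 oxidative phosphorylation subunits was called, 3 passed an unadjusted p of 0.05 (all lower), and their median was -0.04. The largest changes there were those of Cyc1 at -0.2 ± 0.0847 (adjusted p = 0.56) and Cox8a at -0.2 ± 0.132 (0.82).

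Liver genes with a sex bias were read as lists because several called genes carry one. Of 27 male-biased genes, 3 fell, 0 rose, all 13 that passed an unadjusted p of 0.05 were lower, and the median was -0.22. The called members were Gstp1, Nat8, an acetyltransferase, at -0.75 ± 0.151 (adjusted p = 0.021) and Selenbp2, a selenium-binding protein, at -0.56 ± 0.106 (0.013). The Nat8 call was lost without any 1 of 6 arrays (controls 5, 7 and 8 and HFD 1, 2 and 5, 0.051 to 0.067). Without the 3 arrays of highest acinar signal the adjusted p was 0.22 for Nat8 and 0.065 for Selenbp2. That of Selenbp2 was also 0.64 with all B6J and B6N arrays in the fit, 0.7 with all 72 arrays, 0.051 after quantile normalisation and 0.07 with a replicate block. Of 24 female-biased genes, Cyp17a1 and Abcd2 rose and Cyp3a44 fell, with a median of 0.04. Cyp2b9, a female-biased oxidase, had a log2 change of 0.04 ± 0.0832 (adjusted p = 0.98) at levels below the array medians. In the list of thyroid hormone and steroid binding, conversion and response, 2 of 22 rose, 1 fell and the median was 0.04. Beside Serpina7, Dio1, the deiodinase that makes active thyroid hormone, rose by 0.65 ± 0.143 (adjusted p = 0.049), a call lost without any 1 of 13 arrays (all but control 4 and HFD 5, 0.053 to 0.13). Hsd17b2, which inactivates estradiol and testosterone, fell by 0.39 ± 0.0815 (adjusted p = 0.031), a call lost without any 1 of 11 (controls 1 to 5 and 7 and HFD 1, 2, 3, 6 and 7, 0.051 to 0.094). No gene of that list was called without the 3 arrays of highest acinar signal (0.1 for Serpina7, 0.32 for Dio1 and 0.12 for Hsd17b2).

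Markers of other cells were read as whole lists. In bulk liver, fewer cells of a type and less RNA per cell cannot be told apart. None of 33 macrophage and Kupffer cell genes was called, but 16 passed an unadjusted p of 0.05 (7.27% of all genes did), 15 of them higher, and the list median was 0.27. Their mean signal was 6.41, 6.59 and 6.73 in controls and 6.54, 6.84 and 7.03 on HFD. The ranges overlapped, with HFD arrays 2 and 6 among the controls. Cd5l, a Kupffer cell secreted protein, had a log2 change of 0.5 ± 0.127 (adjusted p = 0.11), and Tyrobp, a myeloid signalling adaptor, 0.47 ± 0.11 (0.074). The Kupffer cell markers Clec4f and Timd4 were at 0.33 ± 0.0984 (adjusted p = 0.25) and 0.44 ± 0.12 (0.16). Trem2 and Gpnmb, which mark lipid-associated macrophages, were at -0.04 ± 0.091 (0.98) and -0.04 ± 0.0693 (0.96). Of 24 interferon response genes, Gbp3, a guanylate-binding protein, rose by 0.59 ± 0.111 (adjusted p = 0.013, or 0.074 without the 3 arrays of highest acinar signal), 0 fell and the median was 0.12.

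Other cell types were read the same way. None of 18 lymphocyte, 13 neutrophil, 28 stellate cell and matrix, 24 endothelial, 13 bile duct, 10 adipocyte, 14 skeletal muscle and 7 red blood cell genes was called. At an unadjusted p under 0.05, met by 7.27% of all genes, there were 3, 1, 3, 1, 1, 3, 1 and 1 of them. The adipocyte list had the largest share (3 of 10, 2 higher and 1 lower). Its 2 higher genes were Cidec, also listed under PPARα targets and lipid droplets, and Pck1, also a listed hepatocyte gene. The share is therefore not particular to adipocytes. The list medians were 0.03, 0, 0.02, -0.03, -0.03, 0.04, 0.05 and 0.03. The mean signals of the lymphocyte list (3.96 to 4.23 over all arrays) and the neutrophil list (3.54 to 3.75) lay below the array medians, so these 2 lists say nothing of those cells. The largest changes were those of Ptprc (0.36 ± 0.142, adjusted p = 0.51) and Jchain (0.24 ± 0.0793, 0.34) on the lymphocyte list, and Csf3r (0.23 ± 0.0859, 0.47) and Mmp9 (0.23 ± 0.11, 0.69) on the neutrophil list. Ptprc is not particular to lymphocytes, and unlike the mean of its list it lay above the array medians. For stellate cells they were Rgs5 (0.38 ± 0.215, adjusted p = 0.77) and Acta2 (-0.34 ± 0.124, 0.44), for endothelium Clec1b (0.48 ± 0.193, 0.52) and Emcn (0.23 ± 0.126, 0.76), and for bile duct Slc4a2 (-0.22 ± 0.1, 0.65) and Onecut1 (-0.21 ± 0.464, 0.98). For adipocytes they were Cidec and Pck1 (0.39 ± 0.173, adjusted p = 0.62), for muscle Tpm2 (0.35 ± 0.111, 0.31) and Mb (0.27 ± 0.209, 0.86), and for red blood cells Car1 (-0.31 ± 0.113, 0.44) and Car2 (-0.16 ± 0.105, 0.81). None of 24 cell cycle genes was called, 4 passed an unadjusted p of 0.05 (2 in each direction) and their median was 0.03, with Mcm2 at -0.28 ± 0.116 (adjusted p = 0.56) and Mcm3 at -0.25 ± 0.0881 (0.42).

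The labelled tissue was checked against hepatocyte markers, which were high on every array. The mean log2 signal of 20 mature hepatocyte genes was 11.98 to 12.15 in controls and 11.83 to 12.1 on HFD, none of them was called, and 3 passed an unadjusted p of 0.05. Cps1, the entry enzyme of the urea cycle, had the largest negative change at -0.29 ± 0.0822 (adjusted p = 0.21). Of 20 pericentral genes, Csad fell, and of 16 periportal genes, Cyp2f2 and Hal fell. The medians were -0.09 and -0.13.

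Some called genes belong to none of these lists, and were named after their values were seen. Slc20a1, a phosphate importer, rose 1.67-fold (1.46 to 1.91, adjusted p = 0.00023) from 6.81, 6.97 and 7.09 to 7.34, 7.75 and 8.01, with no overlap. Mtnr1a, a melatonin receptor, was at 4.13, 4.32 and 4.8 in controls and 4.86, 5.07 and 5.79 on HFD. It rose without overlap (adjusted p = 0.0085), by an uncertain fold because most controls lay below the array medians. Klf10, a transcription factor, rose 1.6-fold (1.35 to 1.9, adjusted p = 0.0083), and Ldha, lactate dehydrogenase, 1.28-fold (1.17 to 1.4, 0.0084). Gm2a, a lysosomal activator of ganglioside breakdown, fell 1.63-fold (1.45 to 1.84, adjusted p = 7.2e-05) from 9.85, 10.08 and 10.13 to 9.02, 9.28 and 9.53, again with no overlap. Car14, a membrane carbonic anhydrase, fell 1.65-fold (1.43 to 1.91, adjusted p = 0.00073), Grk5, a G protein-coupled receptor kinase, 1.73-fold (1.45 to 2.07, 0.0025), and Krt18, a hepatocyte keratin, 1.4-fold (1.23 to 1.6, 0.012). Each of these genes kept its call when any 1 array was left out, and Ldha and Krt18 were not called without the 3 arrays of highest acinar signal (adjusted p = 0.057 and 0.13). With all 72 arrays in the fit the calls of Slc20a1 (0.053), Klf10 (0.12), Car14 (0.069) and Krt18 (0.054) were lost. That of Grk5 was lost with all B6J and B6N arrays (0.12), of Krt18 after quantile normalisation (0.09) and of Ldha with a replicate block (0.061).

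The other strains give the same diet comparison in mice that share no animals with B6J. Each was fitted alone, and limma called 192 genes in B6N (0.963% of those tested), 41 in 129 (0.206%) and 93 in C3H (0.466%). Of the 95 genes called in B6J, all 95 had the same direction in B6N, 87 in 129 and 87 in C3H, against 53.4%, 56.6% and 52.6% of all genes. In B6N 58 of the 95 were called in the same direction, in 129 18 and in C3H 31, and 0 were called in the opposite direction in any of the 3 strains. These are 61.1%, 18.9% and 32.6% of the B6J calls, and 30.2%, 43.9% and 33.3% of the calls of B6N, 129 and C3H. The median absolute log2 change of the 95 genes was 0.68 in B6J, where they were selected, 0.61 in B6N, 0.36 in 129 and 0.42 in C3H. The strains' arrays had different medians (4.51 to 4.67 in B6J and B6N, 6.46 to 6.65 in 129, 3.1 to 3.28 in C3H), so the size of a change may be scaled differently between them.

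**Figure D5:**
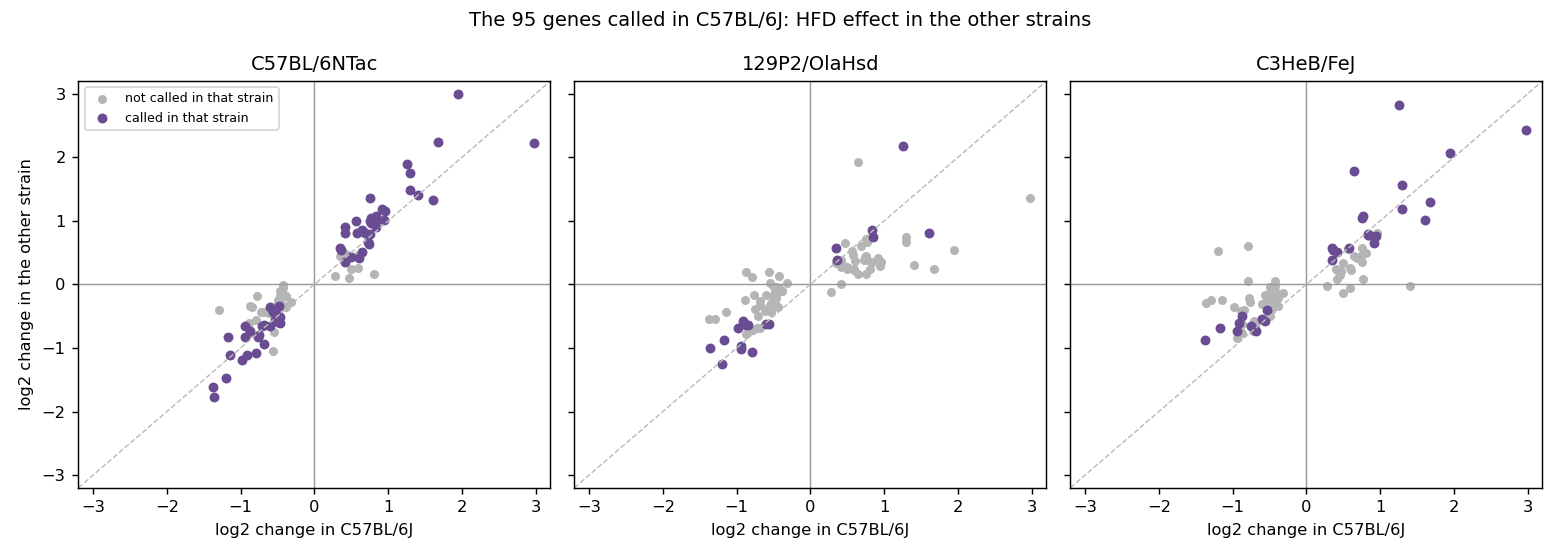
Log2 change on HFD of the 95 genes called in C57BL/6J (horizontal axis) against the change in each other strain (vertical axis), purple where that strain's own fit also called the gene, with the line of equal change dashed. All 95 share their direction in C57BL/6NTac, and 87 do in each of the other strains.

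Called in all 4 strains, in the same direction, were 10 genes. Fabp2, Vnn1, Mgll, Decr1 and Stap1 rose, and Ddc, Ethe1, Gsta4, Gstm6 and Slc13a2 fell. Vnn1 rose by 1.25 in B6J, 1.89 in B6N, 2.17 in 129 and 2.82 in C3H. Gsta4 fell by 0.91 in B6J, 1.11 in B6N, 0.57 in 129 and 0.61 in C3H. Mfsd2a had changes of 2.98 in B6J, 2.23 in B6N (adjusted p = 1.3e-06), 1.36 in 129 (0.25) and 2.43 in C3H (0.00089). Cyp3a11 and Cyp3a44 fell in B6J, B6N (-1.08 and -1.48) and 129 (-1.06 and -1.26), while in C3H their changes were 0.61 and 0.53 (adjusted p = 0.4 and 0.2). Called in B6J and in no other strain were 35 genes, 8 higher and 27 lower, among them Slc39a4, Slc25a25, Orm2, Slco2a1, Osgin1, Gstm1, Car14, Cyp2f2, Selenbp2 and Tef. A call in B6J and none elsewhere does not show that the strains differed.

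B6J and B6N descend from the same stock and their arrays had like medians, and the difference of their diet effects was tested with limma. It was called for 0 of 19938 genes (lowest adjusted p 0.957), and 830 (4.16%) passed an unadjusted p of 0.05. The median SE of the difference was 0.14, and the median half-width of its 95% interval was 0.284 log2 units for a gene taken alone. Calls needed more than that, since the gene of lowest p, Gm10244 (0.54 ± 0.123, adjusted p = 0.96), was not called. Cyp2b9 was not called either (-2.98 ± 0.709, adjusted p = 0.96), with an SE far above the median. Of the 95 genes, 15 passed an unadjusted p of 0.05. The change of Mfsd2a in B6J exceeded that in B6N by 0.74 ± 0.331 (p = 0.031), and that of Slc25a25 by 0.64 ± 0.179 (p = 0.0011). The changes of Apoa4, Fgf21 and Bdh1 were smaller in B6J, by -0.56 ± 0.197 (p = 0.0082), -0.61 ± 0.245 (p = 0.018) and -0.4 ± 0.107 (p = 7e-04). Slc39a4 differed by -0.89 ± 0.318 (p = 0.0082), its change being -1.29 in B6J and -0.4 in B6N. The limma adjusted p of each of these 6 genes rounded to 1, so none of the differences held over all genes. Without B6N HFD array 8, 1 gene was called, Cyp2b9, at -3.51 (adjusted p = 0.003), whose change was 0.04 in B6J and 3.02 in B6N.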

How the data were processed

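Per the labels' protocols, total liver RNA was DNase-treated and purified on columns, and biotin-labelled sense targets were hybridised to Affymetrix whole-transcript arrays. The deposited values are log2 signals of 35556 probe sets on 72 arrays that the authors, per the submitters' processing notes, made with RMA (background correction, quantile normalisation, summary per probe set) and Affymetrix Expression Console 1.1. The sources used here do not say whether all arrays were normalised together. No 2 columns were identical.

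Of the probe sets, 21789 carried 1 gene symbol in the platform annotation, 1621 several and 12146 none, and 21698 of the first were updated by identifier. For each of 19938 genes (999 with more than 1 probe set) the brightest probe set, by its mean over B6J arrays, was used. Each gene was fitted on the 15 B6J arrays in limma 3.58.1 (R 4.3.3; lmFit, eBayes, 13 residual degrees of freedom), two-sided, with Benjamini-Hochberg adjustment over all genes, and calls needed an adjusted value under 0.05. All adjusted p-values come from limma. Values are log2 changes ± SE or folds with 95% intervals. The labels tie no mice to a litter or day, so the spread behind a p-value is that of these samples and may be partly technical. The number of arrays limits the precision, and in the absence of detection calls a signal under its array's median may be background. On simulated data with the spread of each gene on these arrays, the fit recovered 88% of 1.5-fold and 99% of 2-fold changes over 19938 genes. Of its calls there, 3.61% were false. The simulated noise was independent between genes and arrays. It held no array sets, acinar signal or outlying arrays, so these shares may not hold for the real arrays.

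Named genes were the 15 largest called changes in each direction, up to 4 further called members of each of 25 pathway lists, the 2 largest members of lists without calls, Nnt and the 3 genes nearest outside the threshold. Other called genes and other uncalled members were named after their values were seen. The members, lists and tests were chosen with earlier results of these data known, so lists are described by counts and medians with no test of their own. Replicate numbers shared by the groups were not treated as pairs. Alternatives were other sample sets, normalisations, filters, blocks, array weights and a trended robust variance prior in limma, and each array left out.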

Additional observations from a re-analysis of the deposited data

Results flagged for a closer look

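In 16 of 180 gene and group combinations examined, 1 B6J array lay far from the rest of its group (Dixon's test at the 95% level, which chance alone meets in about 1 in 20 groups). Control array 6 was the highest control for Rgs16 (7.96, the next at 5.7), 2010003K11Rik (6.75, next 6.09), Fgf21 (5.4, next 4.84), Gstm4 (9.53, next 9.28) and the acinar gene Sycn (11.55, next 8.13). It also had the highest acinar signal of the controls. HFD array 3 was the lowest HFD array for Slc39a4 (5.7, next 6.52), Gstm4 (7.91, next 8.6) and Cps1 (12.25, next 12.59), and the highest for Ugt2b35 (9.79, next 9.59). HFD array 5 was the highest for Cyp2c55 (5.32, next 4.54) and the lowest for Dio1 (7.84, next 8.66). HFD array 6 was the highest for Gstp1 (12.87, next 12.37). Among controls, array 7 was low for Gstm1 (11.12, next 11.37), array 1 high for the muscle gene Mb (6.14, next 5.16), array 4 low for Cps1 (12.68, next 12.87) and array 2 high for Ugdh (11.22, next 10.94).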

How the results depend on the processing

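No called gene changed direction under any alternative. The 95 calls (42 higher, 53 lower) became 59 (26 and 33) with all 72 arrays in the fit, 148 (89 lower) with the array set, drawn from these arrays' residuals, as a block, and 50 (21 and 29) without the 3 arrays of highest acinar signal, an alternative added after seeing the data. Array weights gave 79 higher calls, 55.6% of 142, against 44.2% of the 95. Leaving out 1 array gave 67 to 131 calls, 28 to 74 higher and 39 to 57 lower. The other alternatives gave 84 to 104. Of the 95 genes, 66 were called whichever array was left out. Under every other alternative that tested them, 33 were called, and 32 under all. The filter for genes above the array median tested 88 of the 95, and a gene it dropped was not counted as lost. The difference between B6J and B6N was called for 0 genes, or 0 to 1 with an array left out. Same-numbered arrays of the groups correlated between -0.29 and 0.5 in their deviations from the group means, 5 of 7 pairs above 0.1. Of the HFD arrays, 2 correlated best with their own number. Low numbers lay mostly in array set A and high ones in set B, so this check cannot tell pairs from sets. With replicate block 93 genes were called (38 higher, 55 lower), 76 of them among the 95, and 0 for the difference from B6N. Apart from the array set as a block, which lowers the residual spread by construction, the causes of these shifts were not tested. Limits are the 15 arrays, the partly younger controls with an unsettled diet label, and shared signal among gene family members.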
